A study of Mus musculus with 11 samples.

Results

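Complement is a chain of blood and tissue proteins, and 9 of its genes were followed here through cultured fetal mouse lung mesenchyme with both, 1 or no working copies of Sp3. The 9 genes were taken by symbol from the 24062 genes that each count file lists: C1ra, C4b, C2, C3, Cfb, Serping1, Cfi, Cd55 and Cd59a. All 9 were found in every file, and all 9 passed the filter on low counts in each comparison. Primary mesenchymal cells had been isolated from embryonic day (E)15 mouse lungs by adhesion to culture plastic and passaged before RNA was taken. The embryos came from matings of Sp3+/- mice, and their libraries fall into 4 WT (Sp3+/+), 4 Sp3+/- and 3 Sp3-/- samples with no other treatment. The null allele is carried by all cells of an Sp3-/- embryo, so any cell type that adhered and survived passage carried it. Nothing in the sources used here says whether the libraries of a genotype came from separate embryos or litters, and p-values therefore measure the spread between these libraries.

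Complement proteins are made mainly by the liver, but fibroblasts, mesothelium, epithelium and macrophages also make them locally. In the classical pathway, C1q binds a target and activates the proteases C1r and C1s, which cleave C4 and C2. In the alternative pathway, C3 that has hydrolysed or been cleaved binds factor B (Cfb). Both routes build a convertase that cleaves C3, and host cells hold the chain in check with soluble inhibitors (C1 inhibitor, factor I) and with proteins anchored in the membrane (CD55, CD59). Sp3 is a zinc finger transcription factor that binds GC boxes, can activate or repress, and is made in almost every cell type.

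Between 9849111 and 59297495 reads were counted on genes per library, with medians of 29805245 in WT, 32852024 in Sp3+/- and 35128458 in Sp3-/-. The smallest library was Sp3-/- replicate 3. Values are counts scaled to the reads on genes of a library (CPM) after TMM scaling, and replicates are numbered within a genotype. Sp3 itself stood at 92.0, 60.7, 107 and 78.8 CPM in the WT libraries, at 51.8, 63.2, 71.6 and 56.2 in Sp3+/-, and at 18.9, 18.3 and 14.4 in Sp3-/-. The Sp3-/- libraries lay below all others, with a log2 fold change of -2.30 ± 0.21 (SE) against WT (edgeR adjusted p = 0.0061). Which part of the gene the null allele lacks is not given in the sources used here. The defining fibroblast genes were abundant, as Col1a1 and Col1a2 averaged 6621 and 5686 CPM over the 11 libraries, and macrophage and mesothelial markers were also present, with values given below.

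Counts per kilobase of exon (CPM per kb) allow the 9 genes to be ranked within a genotype. In WT cells Serping1 led with 21.7 ± 2.67 CPM per kb (SD, n = 4), and its lowest library (17.9) lay above the highest library of every other member. Cd59a (6.80 ± 2.92), Cd55 (5.62 ± 1.76), C2 (4.67 ± 2.56) and C1ra (3.13 ± 0.813) followed, and the libraries of each overlapped those of the next. C3 came next at 2.07 ± 1.56 CPM per kb and overlapped C1ra. Cfb (0.862 ± 0.204) and Cfi (0.668 ± 0.449) were lower still and overlapped each other and the lowest C3 library, and C4b was last at 0.192 ± 0.135, below all of them in every library. In Sp3-/- cells Serping1 again led with 111 ± 64.0 CPM per kb (SD, n = 3). C3 was second by mean at 33.1 ± 29.7, its libraries running from 2.20 to 61.4 and so reaching past both Serping1 (lowest 56.9) and C2, which followed at 28.7 ± 3.81. Cd55 (10.4 ± 2.69), Cfi (7.54 ± 6.93), C1ra (6.26 ± 3.54) and Cd59a (5.79 ± 1.34) came next, each overlapping the one after it, while Cfb (1.34 ± 0.195) and C4b (0.240 ± 0.0472) remained low.

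**Figure D1:**
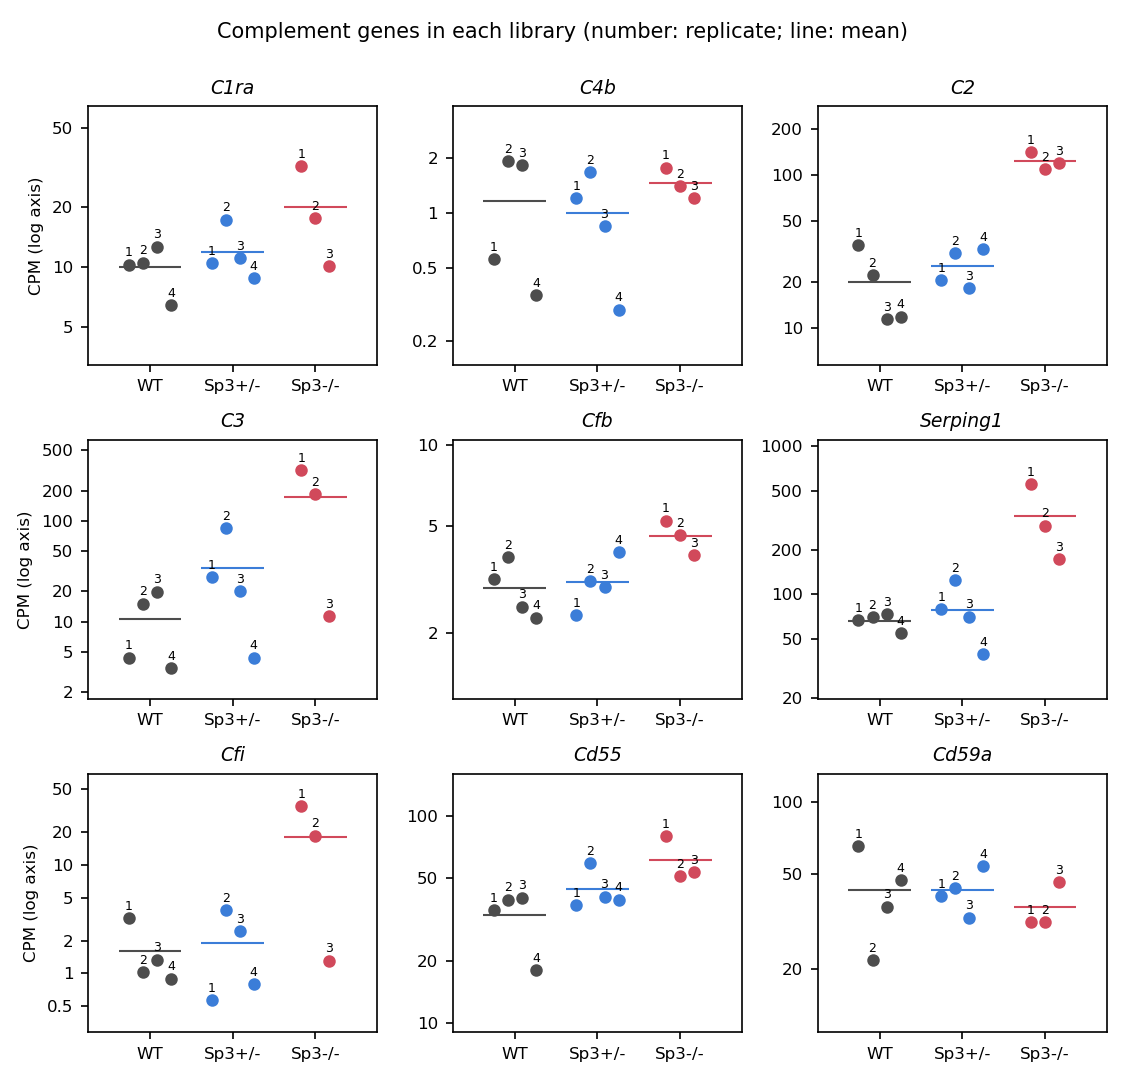
CPM of the 9 complement genes (log axis, a separate scale for each panel) in each library of WT, Sp3+/- and Sp3-/- cells, with the replicate number above each point and the group mean as a line. The 3 Sp3-/- points of C2 and Serping1 lie above every other library, while for C3 and Cfi Sp3-/- replicate 3 lies among the WT points at 11.4 and 1.30 CPM.

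4 of the 9 genes rose in Sp3-/- against WT cells, namely C2, Serping1, C3 and Cfi, and 0 fell. A gene is called where edgeR's quasi-likelihood p, adjusted over all genes by the Benjamini-Hochberg method, was under 0.05. Over all 14025 genes tested, 18.5% were called, and 8.76% were called higher. For 4 of the 9 (C2, Serping1, Cfb and Cd55) every Sp3-/- library lay above every WT library, and 15.1% of all genes showed this pattern. The median log2 fold change of the 9 was 1.00, beside -0.0032 over all genes tested, and 8 of the 9 were above 0. The members were chosen with earlier results of these data known, so these values describe the list and do not test it. Since these are bulk cultures, more cells of a type that makes a gene's RNA cannot be told apart from more of that RNA per cell.

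**Figure D2:**
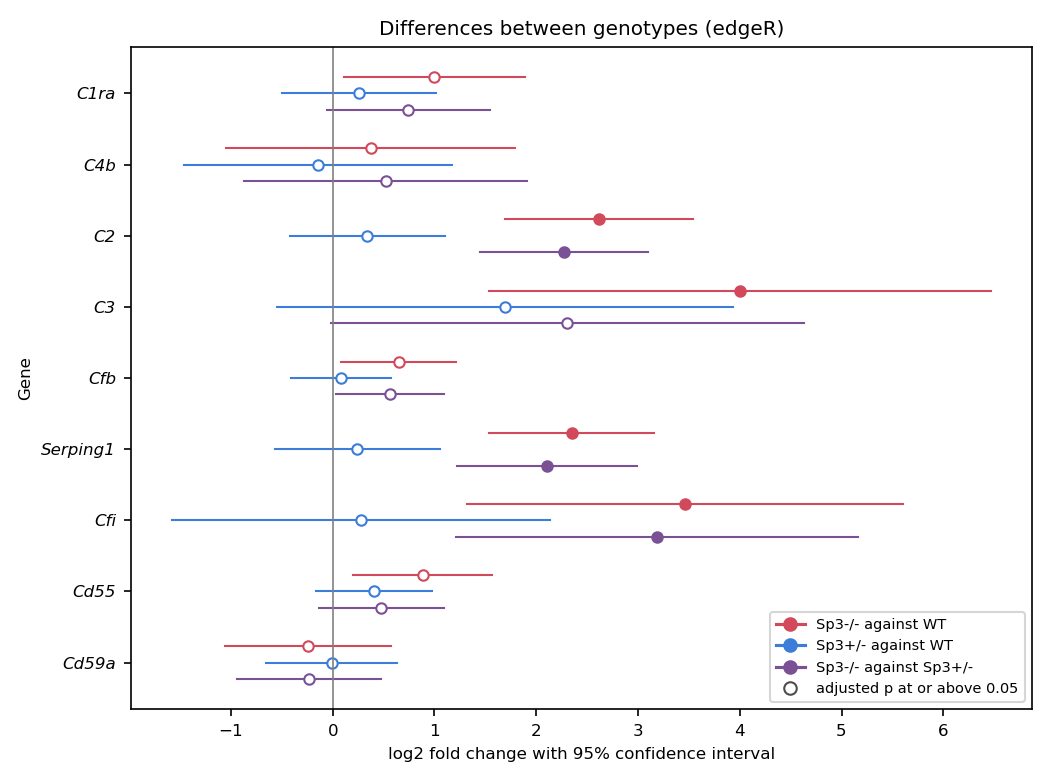
Log2 fold changes (points) with 95% confidence intervals (lines) of the 9 genes in the 3 comparisons between genotypes, with filled points where the edgeR adjusted p was below 0.05. Filled points are C2, Serping1, C3 and Cfi for Sp3-/- against WT and C2, Serping1 and Cfi for Sp3-/- against Sp3+/-, and no point is filled for Sp3+/- against WT.

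C2 (GRCm38, chr17:34862602-34882100) encodes the protease of the classical C3 convertase. Its level was 34.9, 22.3, 11.5 and 11.9 CPM in WT, 20.7, 30.8, 18.3 and 32.8 in Sp3+/-, and 142, 110 and 120 in Sp3-/- libraries. The groups without and with Sp3 did not overlap, and the 3 Sp3-/- libraries lay within a 1.30-fold range. C2 rose by 2.62 ± 0.39 (log2, SE), 6.14-fold with a 95% confidence interval of 3.24 to 11.6 (edgeR adjusted p = 0.0114). It remained called when any 1 of the 7 libraries was left out, with log2 fold changes from 2.43 to 3.03 and edgeR adjusted p up to 0.0452.

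Serping1 (chr2:84765360-84775444) encodes C1 inhibitor, the serpin that inactivates C1r and C1s. WT libraries held 66.8, 69.6, 72.9 and 54.3 CPM, Sp3+/- libraries 79.4, 125, 70.4 and 39.4, and Sp3-/- libraries 552, 290 and 173. Every Sp3-/- library was above every other library, although the Sp3-/- values themselves spread 3.20-fold. The gene rose by 2.35 ± 0.35 (log2, SE), 5.09-fold with an interval of 2.91 to 8.91 (edgeR adjusted p = 0.0108). Leaving out single libraries kept the call each time, with log2 fold changes from 1.80 without Sp3-/- replicate 1 to 2.65 and edgeR adjusted p up to 0.0447.

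C3 (chr17:57203967-57228136), the protein on which the pathways converge, showed the widest spread of the 9 genes. Its WT libraries stood at 4.41, 15.1, 19.9 and 3.47 CPM, its Sp3+/- libraries at 27.7, 85.0, 20.2 and 4.41, and its Sp3-/- libraries at 318, 185 and 11.4. Sp3-/- replicates 1 and 2 were far above all WT libraries, and Sp3-/- replicate 3 lay within the WT range. The log2 fold change was 4.00 ± 1.06 (SE), 16.0-fold with an interval of 2.89 to 88.6 (edgeR adjusted p = 0.0403). This call rested on single libraries. It remained, with an edgeR adjusted p of 0.0223, when Sp3-/- replicate 3 was left out, and it was lost without WT replicate 1, 2, 3 or 4 (edgeR adjusted p = 0.0511, 0.0911, 0.0775 and 0.101) and without Sp3-/- replicate 1 or 2 (0.0857 and 0.110). The log2 fold changes of these fits ran from 3.19 to 4.55.

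Cfi (chr3:129836727-129875332) encodes factor I, the protease that degrades C3b and C4b. It was low in WT, at 3.23, 1.02, 1.33 and 0.889 CPM, and in Sp3+/-, at 0.566, 3.84, 2.46 and 0.793 CPM. Sp3-/- libraries held 34.9, 18.6 and 1.30 CPM. As with C3, Sp3-/- replicates 1 and 2 were above all WT libraries and Sp3-/- replicate 3, where 13 reads were counted, was among them. Cfi rose by 3.46 ± 0.92 (log2, SE) with an interval of 2.50-fold to 48.5-fold (edgeR adjusted p = 0.0405). The call remained without WT replicate 1 (4.08, edgeR adjusted p = 0.0253) and without Sp3-/- replicate 3 (0.0188), and was lost without WT replicate 2, 3 or 4 (0.104, 0.105 and 0.107) or Sp3-/- replicate 1 or 2 (0.0972 and 0.112), where log2 fold changes were 2.60 to 3.46.

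**Figure D3:**
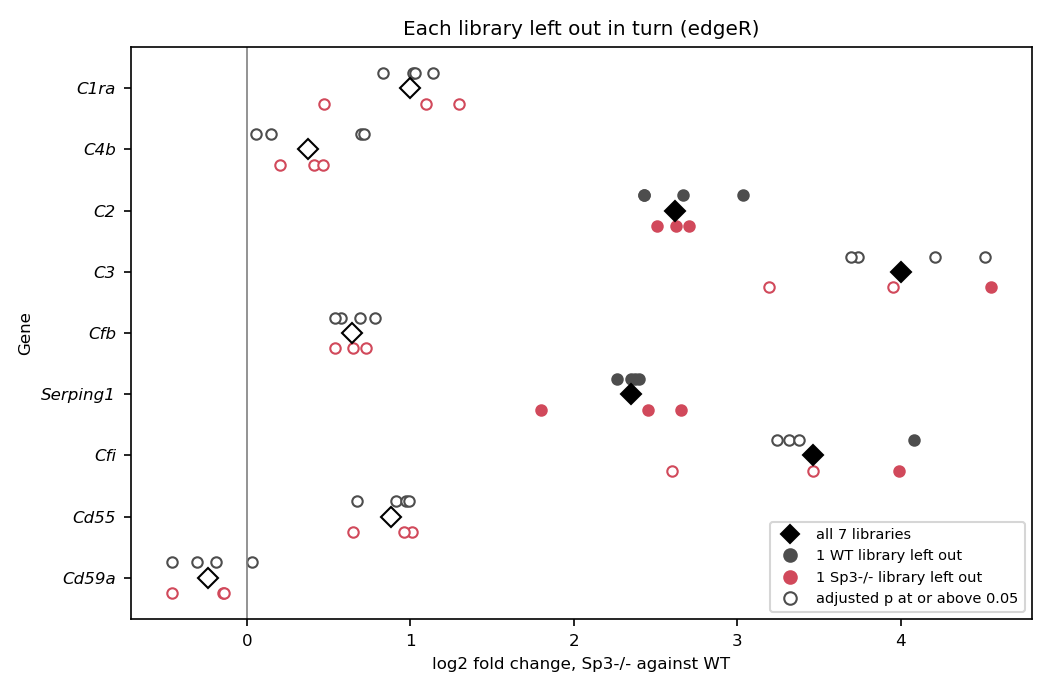
Log2 fold change of Sp3-/- against WT for each of the 9 genes with all 7 libraries (diamonds) and with 1 library left out (circles, WT above and Sp3-/- below the diamond), filled where the edgeR adjusted p was below 0.05. C2 and Serping1 are filled in every fit, C3 is filled only with all libraries and without Sp3-/- replicate 3, and C1ra, C4b, Cfb, Cd55 and Cd59a are open throughout.

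C1ra (chr6:124512621-124523440), the murine gene of the protease C1r, did not pass the test. Its CPM was 10.3, 10.5, 12.7 and 6.43 in WT, 10.5, 17.3, 11.1 and 8.77 in Sp3+/-, and 32.3, 17.5 and 10.1 in Sp3-/-. Sp3-/- replicates 1 and 2 were above the WT libraries and replicate 3 was among them, and the log2 fold change was 1.00 ± 0.38 (SE, edgeR adjusted p = 0.102). The neighbouring copy C1rb held 0 to 3 reads in any library. In the longest annotated transcript of C1ra, 50.8% of all windows of 50 bases, the read length, also occur elsewhere, most of them (48.0%) in C1rb. Reads that align equally well to both are not counted for either gene by htseq-count, so the level of C1ra is uncertain.

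Cfb and Cd55 lay without overlap above WT but did not pass the test. Cfb (chr17:34856374-34862514), factor B of the alternative pathway, was counted at 3.17, 3.83, 2.51 and 2.28 CPM in WT, at 2.34, 3.12, 2.97 and 4.02 in Sp3+/-, and at 5.24, 4.63 and 3.91 in Sp3-/-. The gap between the highest WT and the lowest Sp3-/- library was small, and the log2 fold change was 0.65 ± 0.24 (SE, edgeR adjusted p = 0.0978). Cd55 (chr1:130429798-130465009) encodes the decay-accelerating factor, which dissociates C3 convertases at the cell surface. It stood at 35.1, 39.4, 40.3 and 18.0 CPM in WT, 37.1, 59.2, 40.7 and 39.4 in Sp3+/-, and 79.8, 51.1 and 53.6 in Sp3-/-. Its log2 fold change was 0.88 ± 0.29 (SE, edgeR adjusted p = 0.0708). DESeq2 called both genes along with C1ra, at adjusted p of 0.0427 for Cfb, 0.0204 for Cd55 and 0.0437 for C1ra, so that 7 of the 9 were higher by that test, which called 30.6% of all genes and 15.5% higher. Limma-voom with libraries of the same first label number treated as correlated, which called 21.6% of all genes, also called Cfb against WT (adjusted p = 0.0398) but not C3 (0.0829) or Cfi (0.0727). Both limma-voom fits called Cfb higher against Sp3+/- (adjusted p = 0.0447 and 0.0456), and edgeR with all 11 libraries in 1 fit called Cd55 against WT (adjusted p = 0.0377).

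C4b and Cd59a showed no difference that passed the test. C4b (chr17:34728139-34743902), the substrate of C1s, was the lowest of the 9 with 6 to 98 reads per library. Its CPM was 0.562, 1.91, 1.82 and 0.356 in WT, 1.20, 1.67, 0.849 and 0.297 in Sp3+/-, and 1.77, 1.40 and 1.20 in Sp3-/-, and the groups overlapped (log2 fold change 0.37, 95% interval -1.05 to 1.80, edgeR adjusted p = 0.686). A share of 33.7% of its windows of 50 bases also occurs in the copy C4a, which held 3 to 27 reads and a log2 fold change of 0.56 (edgeR adjusted p = 0.481). Cd59a (chr2:104095753-104115410) encodes the membrane inhibitor that blocks the final pore. Its levels of 65.4, 21.9, 36.5 and 47.2 CPM in WT, 40.4, 43.6, 32.8 and 53.9 in Sp3+/-, and 31.5, 31.5 and 46.1 in Sp3-/- overlapped throughout. It was the only member with a log2 fold change below 0 (-0.24, 95% interval -1.06 to 0.58, edgeR adjusted p = 0.649), and its copy Cd59b stood at 0.68 (edgeR adjusted p = 0.379).

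C2, Cfb and C4b lie together in the class III region of the major histocompatibility complex. Cfb and C2 are adjacent on the map, 87 bases apart, and C4b ends 112471 bases before Cfb. The neighbours C2 and Cfb differed in their change, 2.62 against 0.65 on the log2 scale, and C4b stood at 0.37. A later annotation lists the readthrough gene Gm20547 across C2 and Cfb. There, genes that overlap C2 share 53.4% of its windows of 50 bases, and genes that overlap Cfb share 76.1% of its windows. Gm20547 was the overlapping gene with the most shared windows for both, and it has no row in the count files. Of 10 other genes of the region that were tested, 2 were called higher, Neu1 at 0.90 ± 0.09 (edgeR adjusted p = 0.0068) and Atf6b at 0.35 ± 0.09 (0.0387), and the median of the 10 was 0.11. Over all genes tested, 8.76% were called higher and 18.5% in either direction. Neu1 was called without any 1 library, and Atf6b was lost without WT replicate 2, 3 or 4 or Sp3-/- replicate 2 or 3 (edgeR adjusted p up to 0.137) and with the title suffix as a covariate (0.0731).

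Only C3, C1ra, Cd55 and Cd59a of the 9 genes have an entry in the RefSeq promoter table (GRCm38.p6), and the 250 bases before their annotated starts are shown because C3 and C1ra shared their order of Sp3-/- libraries and because Sp3 binds GC boxes. Capitals mark GC boxes (GGGCGG on either strand) and C/EBP-type words (TTNNGNAA on either strand, N being any base). The strand shown is that of the gene, and the words searched do not overlap in these windows. The windows are chr17:57228137-57228386 (minus strand) for C3, chr6:124512371-124512620 (plus) for C1ra, chr1:130462745-130462994 (minus) for Cd55 and chr2:104095551-104095800 (plus) for Cd59a.
C3: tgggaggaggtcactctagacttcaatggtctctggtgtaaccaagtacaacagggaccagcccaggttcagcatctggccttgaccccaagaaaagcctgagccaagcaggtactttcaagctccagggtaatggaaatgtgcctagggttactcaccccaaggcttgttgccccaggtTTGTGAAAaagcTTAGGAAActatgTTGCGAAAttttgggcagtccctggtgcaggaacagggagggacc
C1ra: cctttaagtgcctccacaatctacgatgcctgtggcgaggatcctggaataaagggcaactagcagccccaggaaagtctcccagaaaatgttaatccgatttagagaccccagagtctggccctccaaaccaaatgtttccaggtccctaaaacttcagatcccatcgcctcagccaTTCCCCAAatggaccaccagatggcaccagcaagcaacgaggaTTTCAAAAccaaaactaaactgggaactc
Cd55: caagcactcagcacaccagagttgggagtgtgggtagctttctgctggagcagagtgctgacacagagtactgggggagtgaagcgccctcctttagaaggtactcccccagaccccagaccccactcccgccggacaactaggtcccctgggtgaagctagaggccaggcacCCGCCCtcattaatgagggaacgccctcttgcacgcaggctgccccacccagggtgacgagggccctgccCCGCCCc
Cd59a: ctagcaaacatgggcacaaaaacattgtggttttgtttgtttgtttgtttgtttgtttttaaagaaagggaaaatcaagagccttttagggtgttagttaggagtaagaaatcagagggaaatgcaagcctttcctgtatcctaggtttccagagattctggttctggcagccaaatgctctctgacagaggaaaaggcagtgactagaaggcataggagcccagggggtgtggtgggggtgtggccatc
C3 holds 3 C/EBP-type words close together near its start and 0 GC boxes. C1ra holds 2 such words and 0 GC boxes. Cd55 is the only one of the 4 with GC boxes, 2 of them, and has 0 C/EBP-type words, and Cd59a has 0 of either. Of 32851 promoter windows of this length, 32.7% hold a GC box and 36.9% a C/EBP-type word. The table's start of Cd55 and that of Cd59a lie inside the annotated span of the gene, and C4b, C2, Serping1, Cfb and Cfi have no entry. These matches describe letters only, and no binding was measured in these files.

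Loss of a single Sp3 copy gave no called change in any of the 9 genes. Over all 14130 genes tested between Sp3+/- and WT, 0% were called by edgeR with all 11 libraries in the fit, 246 had an unadjusted p below 0.05, and DESeq2 and limma-voom also called 0. Sp3 itself had a log2 fold change of -0.49 ± 0.16 (SE) and was not called, so this comparison did not pick out even the targeted gene. 7 of the 9 members were above 0, with a median of 0.26, and edgeR adjusted p was 1.00 for each. The widest interval was that of C3, at 1.70 with a 95% interval of -0.55 to 3.94 and a value of 0.71 without Sp3+/- replicate 2, followed by Cfi at 0.28 (-1.58 to 2.14). C2 stood at 0.34 (-0.42 to 1.10), Serping1 at 0.24 (-0.57 to 1.06), Cd55 at 0.40 (-0.17 to 0.98), C1ra at 0.26 (-0.50 to 1.01) and Cfb at 0.08 (-0.41 to 0.57). C4b (-0.15, interval -1.46 to 1.17) and Cd59a (-0.01, interval -0.66 to 0.64) were the members below 0. The upper bounds for C2 and Serping1 lay below the log2 fold changes of 2.62 and 2.35 that these genes showed in Sp3-/- cells, while those for C3 and Cfi do not limit the difference closely. Within the Sp3+/- group, replicate 2 was the highest library for C3, Cfi, Serping1, C1ra, C4b and Cd55.

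Against Sp3+/- cells, Sp3-/- cells had higher C2, Serping1 and Cfi, and 0 members were lower. Of the 14130 genes, 25.5% were called, and 13% were called higher. C2 was higher by 2.27 ± 0.37 (log2, SE, edgeR adjusted p = 0.0041), Serping1 by 2.10 ± 0.40 (0.0068) and Cfi by 3.18 ± 0.89 (0.0275). C2 and Serping1 were the members whose groups did not overlap, a pattern of 16.4% of all genes in the same direction. C3 stood at 2.31 ± 1.05 with a 95% interval of -0.02 to 4.64 (edgeR adjusted p = 0.129), with Sp3-/- replicate 3 inside the Sp3+/- range, and leaving out any 1 of the 11 libraries did not bring it under the threshold. C1ra (0.74), Cfb (0.56), C4b (0.52), Cd55 (0.48) and Cd59a (-0.23) did not pass either. C2 and Serping1 remained called without any 1 of the 11 libraries, whereas Cfi was lost without Sp3+/- replicate 1 (2.93, edgeR adjusted p = 0.0653), Sp3+/- replicate 3 (3.30, 0.0659), Sp3-/- replicate 1 (2.33, 0.0897) or Sp3-/- replicate 2 (3.19, 0.0697). This comparison shares its Sp3-/- libraries with the one against WT.

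Library titles carry a suffix whose meaning the labels do not give, and it runs almost with genotype. The 3 Sp3-/- libraries, WT replicate 1 and Sp3+/- replicate 4 have no suffix, Sp3+/- replicate 1 has 2, and the other 5 libraries have 3. With the suffix as a covariate over all 11 libraries, C2 (2.07, edgeR adjusted p = 0.0173), Serping1 (2.72, 0.0238) and C3 (5.90, 0.0491) remained higher in Sp3-/- than in WT, and Cfi did not pass (3.28, 0.112). In that fit Sp3-/- against Sp3+/- kept Serping1 (2.54, 0.0461) and lost C2 (1.61, 0.0514) and Cfi (2.64, 0.257). Among libraries without a suffix, 3 Sp3-/- libraries met 1 WT library, whose spread was assumed to be that of the others. There C2 stood at 1.81, Serping1 at 2.32, C3 at 5.26 and Cfi at 2.49, and 0 of all genes were called. The suffix and the genotype can be told apart only as far as these few libraries allow.

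Markers of other cell types also differed with genotype. Beside the counts below, 8.76% of all genes were called higher in Sp3-/- than in WT, and 18.5% in either direction. In all, 8 of 11 macrophage genes were called higher in Sp3-/- than in WT (median log2 fold change 2.35), and their summed level was 591 to 3055 CPM in WT, 356 to 2926 in Sp3+/- and 2997, 11190 and 9925 in Sp3-/- replicates 1, 2 and 3. None of the 11 was at 0 in any library, Lyz2 and Cd68 were the most abundant, and the list holds the C1q genes described below. Those C1q genes lost their calls with the suffix covariate, and the other macrophage genes were not examined in this way. The macrophage sum was 356 to 865 CPM in the libraries with a title suffix and 2926 CPM or more in those without. Of 8 mesothelial genes, 4 were called higher, with a median of 1.68, and their sum, led by Upk3b and Upk1b, was 712 to 1690 CPM in WT, 1389 to 2448 in Sp3+/- and 5800, 3055 and 2072 in the Sp3-/- libraries, with no marker at 0. Of 6 tested epithelial genes, 3 were higher (Krt7, Cdh1 and Epcam), with sums of 29.8 to 66.1 CPM in WT, 51.5 to 88.5 in Sp3+/- and 249, 108 and 82.2 in Sp3-/-, and up to 4 of 7 at 0. The other 3, Nkx2-1 (-1.85), Sftpc (-4.72) and Sox9 (-0.41), were below 0 and not called. Krt7 made up most of the sum, at 237 of 249 CPM in Sp3-/- replicate 1. Cdh1 and Epcam held at most 0.365 and 0.281 CPM in WT, so they passed the filter on low counts only through Sp3-/- libraries. Nkx2-1 and Sftpc passed it only through WT replicate 2. Whether these genes were tested thus depended on the group where they were high. Of 6 endothelial genes 0 were called, with Kdr and Tek the most abundant. Of 10 mesenchyme genes, 4 were lower and 0 higher, with sums of 13153 to 22214 CPM in WT, 15132 to 22521 in Sp3+/- and 19164, 13474 and 7141 in Sp3-/-.

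The members differed in which of these sums they ran with. C3, Cfi, Serping1, C1ra, Cfb and C4b were highest in Sp3-/- replicate 1, lower in replicate 2 and lowest in replicate 3, the order of the mesothelial, epithelial and mesenchyme sums. The epithelial sum was mostly Krt7, and the mesenchyme sum was led by Col1a1 and Col1a2. Col3a1, Pdgfra and Thy1 also had that order. Tbx4 (18.0, 25.3 and 43.6 CPM), Tbx5 (13.0, 15.2 and 22.7) and Foxf1 (7.01, 12.7 and 25.2) had the opposite order, and Pdgfrb and Vim had neither. Sp3+/- replicate 2, the highest Sp3+/- library for C3, Cfi, Serping1, C1ra, C4b and Cd55, also had the highest mesothelial sum of its group (2448 CPM). In other libraries C3 and this sum ran apart, as WT replicate 1 had the highest mesothelial sum of WT (1690 CPM) with 4.41 CPM of C3, WT replicate 3 had 768 CPM with the highest C3 of WT (19.9), and Sp3+/- replicate 4 had 1718 CPM with the lowest C3 of its group (4.41). WT replicate 1 and Sp3+/- replicate 4, the libraries of their groups with the highest macrophage sums (3055 and 2926 CPM), held 34.9 and 32.8 CPM of C2, the highest C2 values among the 8 libraries with Sp3, but only 4.41 CPM of C3 each. They are also the only WT and Sp3+/- libraries without a title suffix, so macrophage sum and suffix cannot be told apart in these 8 libraries. Sp3-/- replicate 1 had a macrophage sum of 2997 CPM, close to those libraries, and 142 CPM of C2. Sp3-/- replicates 2 and 3 had sums of 11190 and 9925 CPM and 110 and 120 CPM of C2. Sp3+/- replicate 2 held 30.8 CPM of C2 with a macrophage sum of 568 CPM. C2 and the macrophage sum thus also ran apart in some libraries. WT replicate 1 and Sp3+/- replicate 4 were also left out together, a choice made after seeing the data. C2, Serping1 and Cfi were again called higher in Sp3-/- than in Sp3+/- cells, among 4495 genes called in either direction. In that fit 0 members were called between Sp3+/- and WT. All remaining WT and Sp3+/- libraries carry a suffix and no Sp3-/- library does, so that fit cannot tell suffix from genotype. Without WT replicate 1, C2 (3.03), Serping1 (2.35) and Cfi (4.08) were called against WT and C3 was not (edgeR adjusted p = 0.0511). Suffix and genotype cannot be told apart in that fit either, in which 4179 genes were called. The part of these cell types in the differences of the members was not tested.

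**Figure D4:**
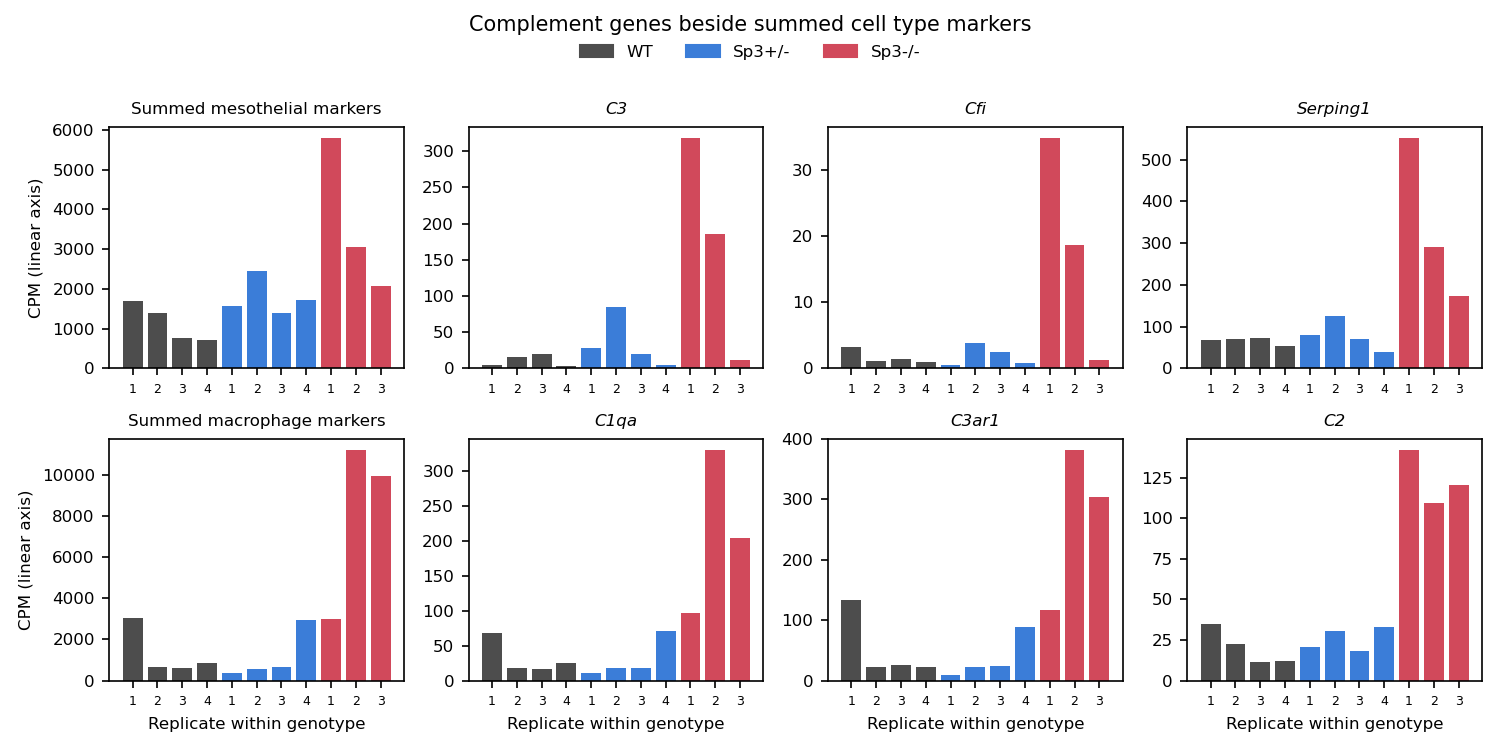
CPM per library (linear axes from 0, bars coloured by genotype and numbered by replicate) of the summed mesothelial and macrophage markers beside C3, Cfi, Serping1, C2 and the complement genes C1qa and C3ar1. Within Sp3-/-, C3, Cfi, Serping1 and the mesothelial sum (5800, 3055 and 2072 CPM) are highest in replicate 1 and lowest in replicate 3, whereas C1qa and C3ar1 are highest in replicate 2, where the macrophage sum is 11190 CPM.

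The rest of the complement system was read from a list of 51 further genes, of which 50 were in the files and 28 were tested. Of these, 8 were called higher and 2 lower in Sp3-/- than in WT cells, and the median log2 fold change was 1.29. Over all genes tested, 8.76% were called higher and 18.5% in either direction. C1qa (2.70), C1qb (2.50) and C1qc (2.56), the chains of the recognition protein upstream of C1r, were higher. C1qa ran at 68.5, 17.8, 16.9 and 25.9 CPM in WT, 11.4, 17.7, 18.6 and 71.3 in Sp3+/-, and 96.2, 330 and 205 in Sp3-/-, so that its highest WT and Sp3+/- libraries were those with the highest macrophage sums. The receptors C5ar1 (1.90), C5ar2 (2.54) and Cd93 (2.39) were also higher, as was the scavenger collectin Colec12 (1.12). Within WT and Sp3+/-, C5ar1 and Cd93 were likewise highest in WT replicate 1 and Sp3+/- replicate 4, and C5ar2 in WT replicate 1 and Sp3+/- replicate 2. Within Sp3-/-, C5ar1, C5ar2, Cd93 and C1qa were highest in replicate 2. C5ar2, at most 0.674 CPM in WT, passed the filter on low counts only through Sp3-/- libraries. C1s1 (2.02), the protease that partners C1r, stood at 30.4, 44.8, 30.7 and 21.5 CPM in WT and 225, 112 and 52.2 in Sp3-/-, the order that C1ra had within Sp3-/-, and its copy C1s2 held 1 to 16 reads. The lectin pathway protease Masp1 fell by 1.90 on the log2 scale and the lectin Colec10 fell by 1.89. Colec10, at most 1.01 CPM in WT, passed the filter only through WT.

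None of these 10 calls held in every fit that left out a library. C1qa, C1qb, C1qc, C5ar1, C5ar2 and Cd93 were called without WT replicate 1 or Sp3-/- replicate 1 and in none of the other 5 fits, where edgeR adjusted p ran up to 0.156 (C5ar2 without Sp3-/- replicate 2, 2.09). C1s1 and Masp1 were lost without WT replicate 2, 3 or 4 or Sp3-/- replicate 2 (edgeR adjusted p up to 0.0804 and 0.0812, at 2.12 and -1.98), and Colec10 in each of the 6 fits that tested it (up to 0.0991). Colec12 was lost without Sp3-/- replicate 2 (0.95, edgeR adjusted p = 0.0597). With the title suffix as a covariate, Colec12 (1.08) and Colec10 kept their calls. The other 8 lost theirs in that fit, with values of 1.52 for C1qa, 1.32 for C1qb, 1.26 for C1qc, 1.10 for Cd93, 1.14 for C5ar1, 1.93 for C5ar2, 2.23 for C1s1 and -1.15 for Masp1 (edgeR adjusted p from 0.0532 to 0.133). Genes of the terminal pore were nearly without reads, as C6, C7, C8a, C8b and C9 held at most 2 reads and Hc, which encodes C5, at most 8 in any library. The exception was C8g, the gamma chain of C8, with 10 to 109 reads and a log2 fold change of -0.28 that did not pass the test (edgeR adjusted p = 0.513). It is named after its values were seen. Cfd, the factor D that cleaves factor B, and Vtn held 0 reads in all 11 libraries, which allows up to 3 reads in each library. Daf2, the symbol under which the files list the copy of Cd55, held 0 to 3 reads. Against Sp3+/- cells, 12 of the 28 were higher and 2 lower, where 13% of all genes were called higher and 25.5% in either direction.

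Genes through which cytokines induce complement were read from a second list, and 5 of 27 tested were called higher in Sp3-/- than in WT cells and 0 lower, with a median of 0.26. Over all genes tested, 8.76% were called higher and 18.5% in either direction. The interleukin-1 receptor Il1r1 (0.93 ± 0.16) was lost only without Sp3-/- replicate 2 (edgeR adjusted p = 0.0606). Il6ra (0.87), lost without WT replicate 2 or 4 or Sp3-/- replicate 2 (up to 0.0781), the endotoxin receptor Tlr4 (1.27), kept only without WT replicate 1 (otherwise up to 0.136), and Cebpa (2.52), kept without WT replicate 1 or Sp3-/- replicate 1 (otherwise up to 0.140), were also among them. With the suffix covariate Il1r1 kept its call (1.18), and Cebpa (1.31, edgeR adjusted p = 0.0948), Tlr4 (0.85, 0.112) and Il6ra (0.84, 0.0578) lost theirs. Cebpa encodes a C/EBP factor, and its level of 38.7, 8.34, 6.59 and 8.15 CPM in WT, 6.16, 7.39, 6.77 and 27.5 in Sp3+/-, and 38.2, 112 and 117 in Sp3-/- was highest, within WT and Sp3+/-, in the libraries with the highest macrophage sums, and lowest, within Sp3-/-, in replicate 1, where C3 was highest. The other C/EBP genes of the list, Cebpb (0.48, edgeR adjusted p = 0.153) and Cebpd (-0.33, 0.365), did not pass the test. The part of C/EBP factors in the level of C3 was not tested.

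The genes whose levels ran most like each member over the 11 libraries, among 11198 genes with a mean above 2 log2 CPM, were named by Pearson correlation of log2 CPM, as a description of libraries that share genotype. Serping1 ran with Slco2a1 (r = 0.990) and Mgat3 (0.972), and C2 with Dtnb (0.987) and Sh3bp5 (0.986). Slco2a1, a prostaglandin transporter, stood at 17.5 to 36.5 CPM with Sp3 and at 153, 81.6 and 53.1 CPM in Sp3-/-, the library order of Serping1. C3 ran with Haghl (0.967) and Pccb (0.963), C1ra with Agrn (0.973) and Tmem176b (0.959), and Cfi with Yy1 (0.976) and Lum (0.955). Lum, the matrix proteoglycan lumican, held 108, 45.8 and 14.8 CPM in the Sp3-/- libraries, where Cfi held 34.9, 18.6 and 1.30. The correlations of C4b (Slx1b, 0.946, and Il13ra1, 0.933), Cd55 (Tmem218, 0.946, and Inpp5k, 0.930), Cd59a (Ebpl, 0.929, and Rundc3a, 0.915) and Cfb (Lif, 0.915, and Etv5, 0.914) were lower.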

How the data were processed

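RNA-seq was analysed in 11 libraries grouped by the genotype in their labels. The authors made TruSeq libraries, sequenced 50 bases from 1 end, ran FastQC 0.10.1 on the reads, aligned them with STAR 2.4.5a to mm10 (GRCm38) and counted them with htseq-count. The deposited values are raw counts per gene symbol, and the annotation version and strand setting are not given in the sources used here. The 5 tally rows, 38.4% to 40.9% of each library, were left out.

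Genes that exceeded 1 CPM in 1 or more libraries entered the test, which was that of edgeR 4.0.16 in R 4.3.3 (TMM, estimateDisp, robust glmQLFit, glmQLFTest) with Benjamini-Hochberg adjustment over all genes tested and a threshold of 0.05. Sp3-/- against WT used 7 libraries, and comparisons with Sp3+/- used all 11. A standard error is the log2 fold change divided by the root of its F statistic. Steps were tested on simulated data. Log2 CPM used a prior count of 2. CPM per kb used exon lengths of GENCODE vM39, and shared windows its longest transcripts. Coordinates and promoters are those of the RefSeq table for GRCm38.p6.

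Alternatives were DESeq2 1.42.0, limma-voom from limma 3.58.1 without and with a consensus correlation (the study names one for repeated measures, without saying which libraries these join, and here it joined libraries of the same first label number), 2 other scalings, 2 other filters, a block on the first label number, a covariate for the title suffix, libraries without a suffix, another choice of groups in the fit, and each library left out. The libraries with most macrophage markers were left out together as a choice made after seeing the data. The members and gene lists were chosen with earlier results of these data known. Named genes were Sp3, the 9 members, called genes of the complement, inducer and region lists, near copies of members, the 2 most abundant markers of each cell type list, and the 2 genes most like each member. The level of 1 called gene of the inducer list is not reported here. No library of a genotype was a copy of another (lowest chi-square per degree of freedom 15.8).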

Additional observations from a re-analysis of the deposited data

Results flagged for a closer look

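Cd55 in WT stood out for 1 library. WT replicate 4 held 18.0 CPM, while the other WT libraries held 35.1 to 40.3 CPM, and on the log2 CPM scale its gap to the nearest of them was 0.8296 of the range of the group, just above the 95% limit of Dixon's test for 4 samples. On the linear scale the share was 0.768, under that limit. It was 1 of 18 groups of 4 libraries tested, and chance gives about 1 in 20. Without WT replicate 4, Cd55 stood at 0.68 (log2) in Sp3-/- against WT and did not pass the test.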

How the results depend on the processing

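C2 and Serping1 were called higher in Sp3-/- than in WT cells under each alternative run except the fit of libraries without a suffix, where both were still above 0 (1.81 and 2.32) and 0 genes and 0 members were called. Against the 4 members and 2599 genes called, DESeq2 called 7 members and 4297 genes, and limma-voom 2 members and 2493 genes. A filter that kept every gene with a count gave 2 members and 2197 genes. Genes called were 1329 with the suffix covariate and 3977 with all 11 libraries in a single fit. Leaving out single libraries gave 2 to 4 members and 282 genes (without Sp3-/- replicate 2) to 4179 (without WT replicate 1), with 893, 766 and 802 genes without WT replicate 2, 3 and 4 and 1408 without Sp3-/- replicate 3. For Sp3-/- against Sp3+/-, the suffix covariate called 763 genes and 1 member in place of 3607 and 3. Single libraries left out gave 2 to 3 members and 1490 (without Sp3-/- replicate 2) to 4245 genes, with 2314, 2069 and 1887 genes without Sp3+/- replicate 1, 2 and 3.

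The libraries share first label numbers (468, 685 and 697) that the labels do not explain. Whether libraries of the same number are paired is not known. Deviations from group means correlated from -0.62 to 0.34 (median 0.10) over 14 pairs with the same number and from -0.52 to 0.71 (median -0.04) over 26 pairs without. Pairs of number 685 ran from 0.11 to 0.29, the pair of 468 stood at -0.41, and pairs of 697 ran from -0.62 to 0.34. The value of 0.71 joined WT replicate 1 and Sp3+/- replicate 4, which differ in number and both lack a suffix. These values do not settle whether the number pairs the libraries. With the number as a replicate block, 4031 genes and 3 members (C2, Serping1 and Cfi) were called in Sp3-/- against WT, and Cd59a stood at 0.089. In Sp3+/- against WT the block gave -0.080 for Serping1, -0.34 for Cfi and 0.19 for Cd59a.

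Other changes of sign were small and were in values that did not pass the test. In Sp3-/- against WT, Cd59a ran from -0.46 to 0.034 with single libraries left out. In Sp3+/- against WT, C4b was 0.26 by limma-voom and 0.27 with the consensus correlation, and Cd59a was 0.14 without the libraries with most macrophage markers. Single libraries left out gave ranges there of -0.55 to 0.20 for C4b, -0.067 to 0.46 for Serping1, -0.062 to 0.23 for Cfb, -0.29 to 0.92 for Cfi and -0.22 to 0.27 for Cd59a. Upper-quartile scaling lowered the median log2 fold change of all genes from -0.0032 to -0.071 and the share of calls that were higher from 47.3% to 37.0% (Sp3-/- against WT) and from 51.0% to 39.8% (Sp3-/- against Sp3+/-), and the members above 0 stayed at 8, 7 and 8. The causes of these differences were not tested.

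With 3 Sp3-/- libraries, one of them the shallowest, C3 and Cfi are known only within wide intervals, and C4b, with at most 98 reads per library, and C1ra, which shares much of its sequence with C1rb, are the least certain levels. Intervals cover the spread between libraries and counting error only.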

Other observations

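Acute-phase genes, which the liver and inflamed tissue make along with complement, were named after their values were seen. Of 7 tested, Hp (3.76), Saa3 (3.30) and Serpina3n (2.51) were called higher in Sp3-/- than in WT cells and 0 were called lower, with a median log2 fold change of -0.30 over the 7. Over all genes tested, 8.76% were called higher. Saa3 held 0.162 to 0.730 CPM in WT and 8.63, 3.93 and 1.40 in Sp3-/-, and Serpina3n held 0.237 to 3.15 in WT and 18.3, 11.6 and 6.61 in Sp3-/-, both in the library order of C3. All 3 calls were lost without WT replicate 2 or 3 or Sp3-/- replicate 2, with edgeR adjusted p up to 0.0893 for Hp, 0.0665 for Saa3 and 0.126 for Serpina3n. With the suffix covariate Saa3 kept its call (3.46), and Hp (4.10, edgeR adjusted p = 0.0631) and Serpina3n (2.68, 0.130) did not. The receptor C3ar1 stood at 133, 22.4, 26.2 and 22.4 CPM in WT and 117, 381 and 304 in Sp3-/- (2.39, edgeR adjusted p = 0.0637) and did not pass the test. It was also singled out after its values were seen.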
